A study of Homo sapiens with 4 samples.

Results

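TEAD1, TEAD2, TEAD3 and TEAD4, the coactivator genes YAP1 and WWTR1, the target genes CCN1, CCN2 and AMOTL2, and the kinase gene LATS2 were examined for binding of MEIS1 and MEIS2. These 10 of 20136 protein-coding genes were chosen by name, as factors and targets of the Hippo pathway, and not by a signal threshold. Earlier results of these data were known when they were chosen, so their counts are descriptions only. Every reproducible site and every peak with a summit in the gene body, extended by 250 kb on each side, was assigned to the gene, which gave 25 of 5169 reproducible sites. ChIP-seq (sequencing of immunoprecipitated chromatin) was performed on untreated human neural stem cells (hNSC), a commercial culture grown in serum-free medium. All samples were the same unmodified cells, namely 2 MEIS ChIP replicates and 2 Input samples, which are sheared chromatin without immunoprecipitation. Because the ChIP combined an antibody against the A isoforms of MEIS1 and MEIS2 with an antibody against MEIS1, peaks of the 2 proteins cannot be told apart. Of MEIS2, only the A isoforms were targeted. The study processed 2 batches of cells in parallel, the Input samples entered only through the authors' peak calling, and there was no second condition to test against. The values below are therefore positions, strengths and counts, given for both replicates.

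In the Hippo pathway, the kinases LATS1/2, which act downstream of the kinases MST1/2, phosphorylate the coactivators YAP (YAP1) and TAZ (WWTR1). This keeps YAP and TAZ out of the nucleus. Unphosphorylated YAP and TAZ enter the nucleus and bind TEAD transcription factors, which recognise CATTCC-type sequences and activate genes such as CCN1 and CCN2. In neural progenitors the pathway is known for its role in proliferation. MEIS proteins recognise TGACAG, often next to PBX proteins, with which they can bind a composite element.

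The sequences around the summits show which of these elements lay where MEIS binding was recorded. They are forward-strand GRCh37 (hg19) sequence, 5′ to 3′. The first set shows the 6 sites that held the TEAD consensus (ACATTCC or GCATTCC on either strand), at CCN2, CCN1 and YAP1, around the matches nearest to the summit. Capitals mark matches to the TEAD consensus, which reads GGAATGT or GGAATGC on the other strand, and to TGACAG, which reads CTGTCA on the other strand.
CCN2, at the start site, chr6:132272589-132272693: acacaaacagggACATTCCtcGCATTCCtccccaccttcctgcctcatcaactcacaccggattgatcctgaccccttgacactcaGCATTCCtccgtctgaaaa
CCN2, 3.27 kb upstream, chr6:132275769-132275799: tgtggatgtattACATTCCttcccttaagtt
CCN2, 164.5 kb upstream, chr6:132437009-132437063: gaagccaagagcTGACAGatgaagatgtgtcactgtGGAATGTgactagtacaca
CCN1, 26.8 kb upstream, chr1:86019707-86019821: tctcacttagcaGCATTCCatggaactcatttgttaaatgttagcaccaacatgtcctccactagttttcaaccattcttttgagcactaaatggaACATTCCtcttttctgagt
CCN1, 3.84 kb downstream, chr1:86050191-86050219: aaaggtccagaGCATTCCtaaaagaaagg
YAP1, 99.2 kb upstream, chr11:101881955-101882003: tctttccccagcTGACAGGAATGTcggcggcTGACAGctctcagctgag

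At the start site of CCN2 the first pair of TEAD matches was separated by only 2 bases, and all 3 matches faced the same way. At YAP1 the elements shared a base, so that the last G of TGACAG was the first G of the TEAD match, and another TGACAG followed. The second set shows sites without the TEAD consensus, to set beside the first: the MEIS core alone at CCN1 and LATS2, and the composite PBX–MEIS element, in capitals over its whole length, in windows of TEAD3 and YAP1.
CCN1, 2.15 kb upstream, chr1:86044294-86044323: caacatttgaagCTGTCAagaatgctttgt
LATS2, 100.5 kb downstream, chr13:21535204-21535327: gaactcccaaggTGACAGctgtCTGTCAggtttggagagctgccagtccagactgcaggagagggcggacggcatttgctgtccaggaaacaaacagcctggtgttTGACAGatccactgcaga
TEAD3, 243.0 kb upstream, chr6:35707821-35707854: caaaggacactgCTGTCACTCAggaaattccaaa
YAP1, 311.0 kb downstream, chr11:102292111-102292144: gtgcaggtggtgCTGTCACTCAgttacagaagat

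Replicate 1 held 36796 peaks and replicate 2 held 47449 peaks, called separately against Input. Peak lists carry no reads, so depth was unknown, and strength is given as the authors' −log10 p of a peak and its fold enrichment over Input. The site list held peaks that passed the irreproducible discovery rate (IDR), a measure of whether a peak's rank holds up between replicates, at 0.01 or less. For all 25 sites the −log10 p of the site list equalled the lower of the replicate values. It had a median of 27.1 at the 25 sites and of 29.3 over all 5169 sites. Median fold enrichment at the 25 sites was 6.40 in replicate 1 and 10.2 in replicate 2, against 6.38 and 11.5 over all sites. Strength at these genes thus lay close to that of the whole list.

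Of the 10 genes, 9 had at least 1 reproducible site, against 47.6% of all protein-coding genes. Only AMOTL2 had none. The windows of the 10 genes spanned 5.86 Mb and held 4.27 sites per Mb, against 1.83 sites per Mb in the windows of all protein-coding genes. CCN1 had the most sites, with 5, and CCN2 followed with 4, although both genes are short. TEAD3, TEAD4 and YAP1 had 3 each, TEAD1, TEAD2 and WWTR1 had 2 each, and LATS2 had 1. A wide window assigns 1 site to several genes, and for 8 of the 25 sites the nearest canonical transcription start site (TSS) of a protein-coding gene was that of a listed gene. These 8 were 4 sites of CCN2, 3 of CCN1 and 1 of TEAD1.

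**Figure D1:**
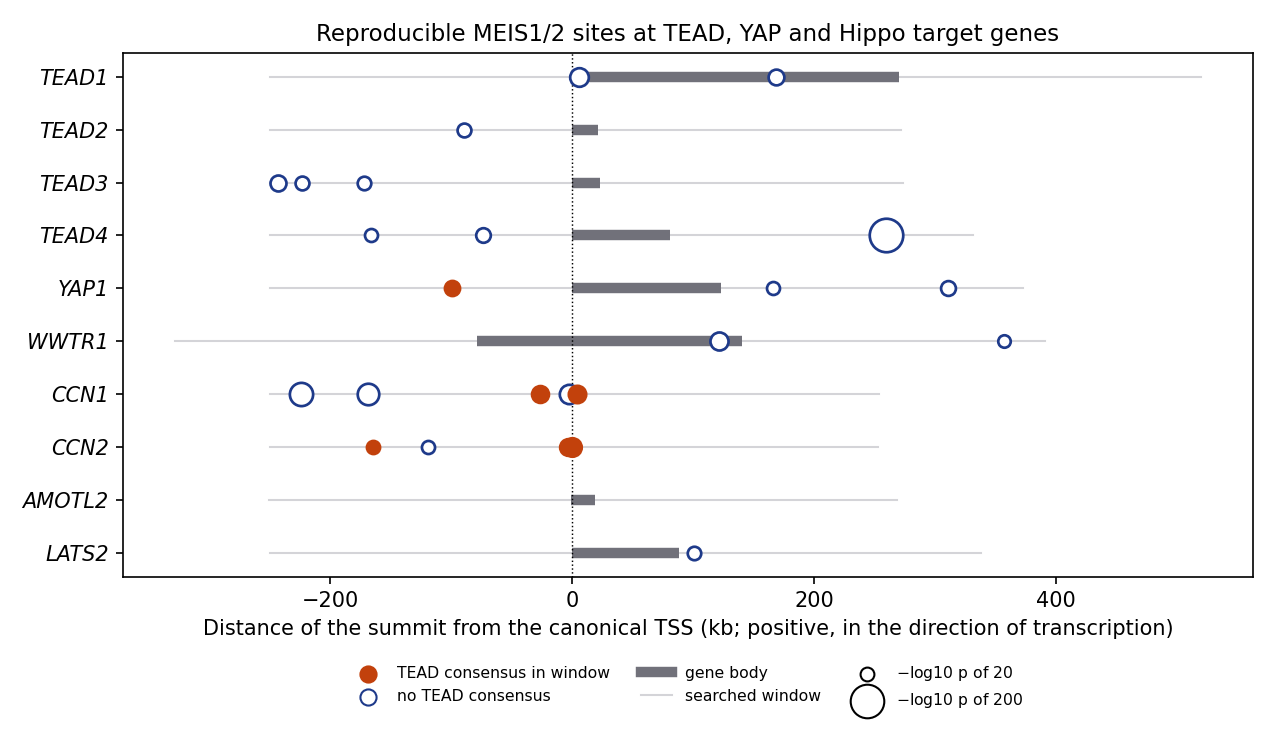
Distance in kb of 24 of the 25 reproducible sites from the canonical TSS of its gene, with symbol area growing with −log10 p, filled symbols for windows with the TEAD consensus, thick lines for gene bodies and thin lines for the searched windows. CCN1 and CCN2 are the genes with sites within 5 kb of the TSS, the largest symbol is the TEAD4 window site with a −log10 p of 199, and AMOTL2 has no symbol.

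The number of sites was set beside that of 200 protein-coding genes of the most similar body length, whose windows overlap each other in places and which are not independent. For CCN1 none of the 200 genes had as many as 5 sites, the highest count among them being 4. For CCN2, 2 of the 200 genes, or 1%, had 4 or more. Those short genes had a median of 0 sites. TEAD3 followed with 6% of like-length genes at 3 or more, YAP1 with 10% and TEAD4 with 13.5%. With gene bodies extended by 100 kb instead, TEAD3 had 0 sites and TEAD4 had 1, a count reached by 31% of its like-length genes, and with 500 kb the share for CCN2 was 6%. From replicate 2 alone, TEAD3 had 1 site. The counts of TEAD2, TEAD1 and WWTR1 were reached by 20%, 38.5% and 42% of like-length genes, and that of LATS2 by 56%. CCN1 and CCN2 thus stood highest for their length, while LATS2 and AMOTL2 had no more sites than the median gene of theirs.

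**Figure D2:**
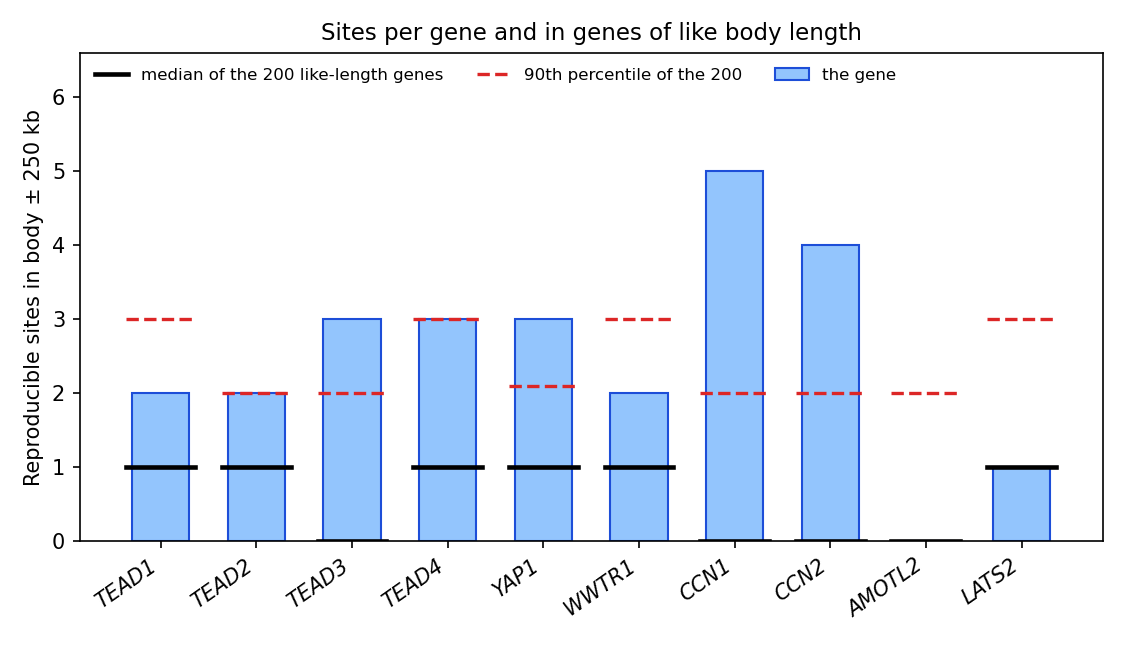
Bars give the number of reproducible sites in the gene body extended by 250 kb for each of the 10 genes, black lines the median and dashed red lines the 90th percentile of the 200 genes of most similar body length. CCN1 with 5 sites and CCN2 with 4 exceed a 90th percentile of 2, and AMOTL2 has no bar.

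In the peak lists of the single replicates the windows of the 10 genes held 141 peaks in replicate 1 and 164 in replicate 2. In replicate 1, 73 of the 141 were shared with replicate 2 by at least 1 bp, which was 51.8% (Wilson 95% interval 43.6 to 59.9), against 49.0% of all replicate 1 peaks. LATS2 had the fewest, with 5 peaks in each replicate, and AMOTL2 had 12 and 11. TEAD4 had 9 in replicate 1 and 18 in replicate 2, the widest relative gap between replicates. CCN1 had 20 and 20, as did CCN2, while the median of the like-length genes lay between 6 and 7 in both replicates. The longer genes TEAD1 and WWTR1 had more in replicate 2. TEAD1 had 21 and 23, with like-length medians of 10 and 13, and WWTR1 had 17 and 24, with medians of 11 and 13.

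The TEAD genes encode the DNA-binding factors of the pathway. TEAD1 was the one with reproducible sites inside its own body. The first lay in intron 2, 5.99 kb downstream of the TSS, at chr11:12701016-12702500, with −log10 p values of 53.4 and 49.9 in replicates 1 and 2. The second lay in intron 3, 168.7 kb downstream, at chr11:12863829-12865220, with 59.3 and 30.9. The TSS nearest to it, 166.2 kb away, was that of RASSF10. The intron 2 window held neither the TEAD consensus nor TGACAG, and the intron 3 window held 1 TGACAG centred 245.5 bp from the summit, at its edge.

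The sites in the windows of TEAD2, TEAD3 and TEAD4 all lay outside these genes, and none had one of them as the nearest gene. One of the TEAD2 sites lay 116 bp upstream of the TSS of PIH1D1. It had 20.1 and 23.7 and neither motif.
In the TEAD3 window, the strongest site lay in intron 3 of ARMC12, with 32.2 and 35.3 and a composite element centred close to the summit. A site 16.4 kb upstream of ARMC12 had 24.6 and 20.2. A site in intron 1 of FKBP5, which encodes a co-chaperone of the glucocorticoid receptor, had 19.9 and 18.8. All 3 lay at least 172.2 kb upstream of TEAD3.

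The strongest of the 25 sites was in the TEAD4 window, in intron 3 of the tetraspanin gene TSPAN9, at chr12:3327452-3328827. It had −log10 p values of 232 and 199 in replicates 1 and 2, fold enrichments of 25.0 and 38.9, and rank 306 of the 5169 sites. It lay 259.4 kb downstream of the TEAD4 TSS, and its 500 bp window held 1 TGACAG, centred 188.5 bp from the summit, and no TEAD consensus. The other TEAD4 sites were weaker. A site in coding exon 2 of RHNO1, nearest to the TSS of TULP3, had 24.4 and 24.2. A site 1.56 kb upstream of FKBP4 had 15.8 and 16.8. None of the 10 sites in the 4 TEAD windows held the TEAD consensus.

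YAP1 and WWTR1 encode the paralogous coactivators YAP and TAZ. The YAP1 site with the overlapping elements, at chr11:101881619-101882533, had −log10 p values of 43.1 and 27.1 in replicates 1 and 2. It lay 99.2 kb upstream of YAP1, and the nearest TSS, 36.2 kb away, was that of CFAP300. An overlap of the TEAD consensus with TGACAG occurred at 9 of the 5169 sites, or 0.174%, of which this was 1; the overlap was looked for because it was seen here. The other YAP1 sites lay downstream of the gene. One was 40.5 kb from the TSS of BIRC3, which encodes an inhibitor of apoptosis, with 20.5 and 15.7. The other was in intron 2 of TMEM123, with 27.6 and 25.4. No reproducible site lay in the YAP1 body.
WWTR1 had 1 site in its body, in intron 4, at chr3:149253909-149254896, with 49.6 and 45.8. It held TGACAG at 2 positions, and the TSS nearest to it was that of TM4SF4. The second WWTR1 site, nearest to TM4SF18, had 13.2 in replicate 1 and 39.8 in replicate 2, the widest gap by ratio between replicates among the 25 sites.

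CCN1 (also known as CYR61) and CCN2 (also known as CTGF) encode secreted matricellular proteins and are standard readouts of YAP and TAZ activity. A reproducible site within 5 kb of the canonical TSS was present at 2 of the 10 genes, CCN1 and CCN2, against 2.42% of 19856 genes with a canonical transcript. Each had 2 such sites, which held for 9 genes in all, or 0.0453%. This count of 2 was chosen after the values were seen. The other 7 genes were ABCB4, PALMD, PDE7B, TLE1, TLE3, VCAN and ZBTB18.

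At CCN2 the promoter site lay 151 bp upstream of the TSS, at chr6:132272396-132273120, with −log10 p values of 65.3 and 48.6 in replicates 1 and 2. Fold enrichment was 9.88 and 13.7. The 3 TEAD matches were centred 59 and 50 bp on one side of the summit and 15 bp on the other, and no TGACAG was in the window. The replicate summits were 13 bp apart, and the windows on both held all 3 matches. At least 3 matches were present at 19 of the 5169 sites, or 0.368%, and at 1 of the 25, the cut of 3 being taken from this site. A peak within 1 kb of the canonical TSS in both replicates was present at 1 of the 10 genes, CCN2. This share of 10% was near the 9.09% of all genes with a canonical transcript. YAP1 and AMOTL2 had such a peak in replicate 1 alone, with a −log10 p of 4.50 and 3.64.

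The second CCN2 site lay 3.27 kb upstream, at chr6:132275076-132276574, with 36.7 and 40.6. Its summits in the replicates were 562 bp apart, the widest gap among the 25 sites, and the summit of the site list was their midpoint. The TEAD match in the window was centred 2 bp from that midpoint, so it lay at the summit of neither replicate. The distal CCN2 sites were weak in comparison. The one 164.5 kb upstream had 16.3 and 19.9, with TGACAG centred 0.5 bp from the summit and the TEAD match 24.5 bp away from it. The one 119.1 kb upstream had 16.2 and 29.9 and neither motif. All 4 sites lay inside the annotated gene of LINC01013, a long non-coding RNA on the opposite strand, and outside its exons.

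CCN1 had sites on both sides of its short body. The site 2.15 kb upstream, at chr1:86043378-86044962, had 57.4 in replicate 1 and 55.4 in replicate 2, with TGACAG centred 10.5 bp from the summit and no TEAD consensus. Its summit fell in the exon of an unnamed long non-coding RNA. The site 3.84 kb downstream of the TSS, at chr1:86049805-86050926, had 48.8 and 41.1. Its summit was 9 bp past the last base of the gene record. The TEAD matches of that window, 2 in number, lay 76 and 220 bp from the summit, and it held no TGACAG. The site 26.8 kb upstream had 40.4 and 38.0 and 2 TEAD matches, 36 and 120 bp from the summit. At none of these 3 sites did the TEAD consensus and TGACAG occur in the same window.

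The strongest CCN1 sites were also the most distant and lay in another gene, DDAH1, which encodes an enzyme that breaks down methylated arginines. The one in intron 2 of DDAH1, 224.5 kb upstream of CCN1, had 133 in replicate 1 and 87.1 in replicate 2, with TGACAG centred 3.5 bp from the summit. The TSS nearest to it, 79.7 kb away, was that of BCL10. The one in intron 1, 169.1 kb upstream, had 72.3 and 166 and neither motif. Their order of strength was therefore opposite in the replicates.

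AMOTL2 encodes an angiomotin family protein that binds YAP and is itself a target gene. It had no reproducible site, a count that any like-length gene reached. Outside the site list, 4 peaks of its window overlapped between replicates. The strongest of them by the lower replicate value had −log10 p values of 8.47 and 13.7 in replicates 1 and 2, and lay 63.8 kb upstream. Another, 40.6 kb downstream, had 16.7 and 7.84. LATS2 encodes the kinase that phosphorylates YAP and TAZ and is also induced by them. Its site lay 11.9 kb past the gene's 3′ end, at chr13:21534266-21535580, with 18.1 and 34.6. It held 3 TGACAG matches and no TEAD consensus, and the nearest TSS was that of XPO4.

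**Figure D3:**
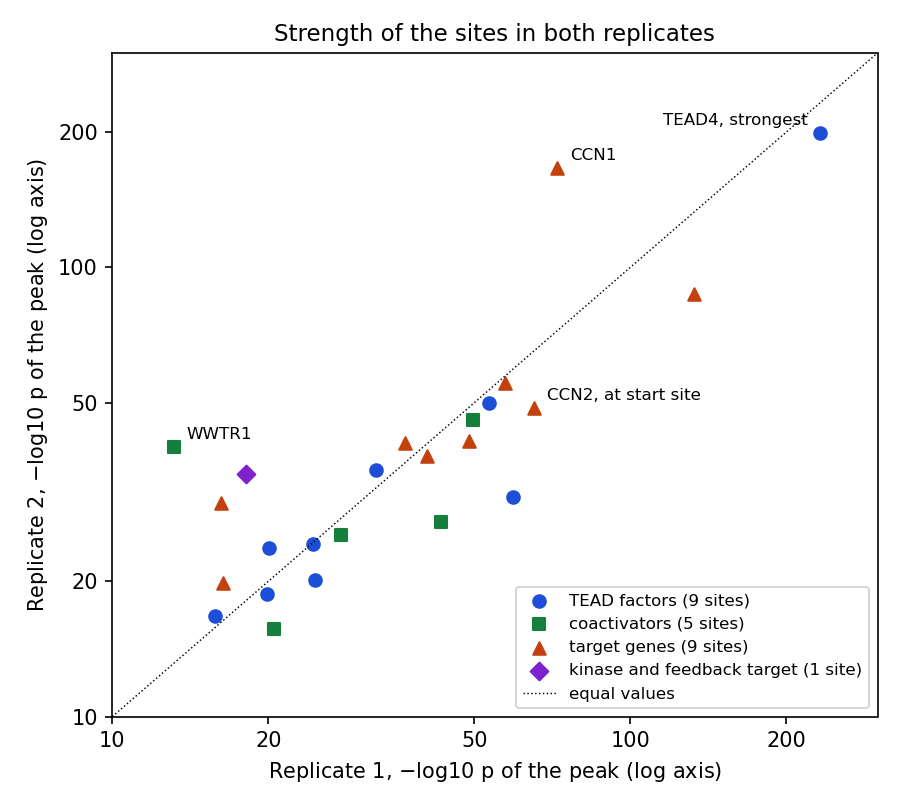
The −log10 p of the peak at 24 of the 25 sites in replicate 1 against replicate 2, both on log axes, with symbols by the role of the gene and a dotted line for equal values. Most sites follow the line, the TEAD4 site is highest with 232 and 199, and the labelled WWTR1 site (13.2 and 39.8) and CCN1 site (72.3 and 166) lie above it.

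The replicates gave 3 of 25 sites with values more than 2 times apart, or 12%, against 13.9% of all sites. They included the second WWTR1 site and the CCN1 site in intron 1 of DDAH1. By −log10 p, replicate 1 was higher at 16 of the 25 sites, or 64%, and at 35.8% of all sites, and by fold enrichment it was higher at 1 of 25, against 2.57% of all sites. The measures scale differently with depth, which was unknown, so no order of the replicates is read from them.

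A reproducible site inside the gene body was present at 2 of the 10 genes, TEAD1 and WWTR1, against 8.34% of all genes, which include many shorter ones. With respect to the TSS of its gene, 16 of the 25 sites lay upstream.

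The TEAD consensus was present in the 500 bp windows of 6 of the 25 sites, or 24% (Wilson 95% interval 11.5 to 43.4), against 25.8% of all sites. The share was thus near that of all MEIS sites, which are not a genomic background. The study reported a TEAD1 motif as enriched in its MEIS peaks over sequence of matched GC content. The 6 sites with the TEAD consensus were 3 of CCN2, 2 of CCN1 and 1 of YAP1, that is 5 of the 9 sites of the target genes. This split by role was not a planned result, and AMOTL2, the other listed target gene, had no site. Of the 10 matches at these 6 sites, 6 were centred within 50 bp of the summit, or 60% (Wilson 95% interval 31.3 to 83.2), against 32.0% of the matches at all sites, the CCN2 match at the midpoint among them. For TGACAG matches this share was 73.7% at the 25 sites and 55.1% at all sites. In windows of 200 bp all 6 sites still held a match, again 24%, against 15.1% of all sites. At least 2 matches were present at 3 sites, or 12%, against 3.83%. These are small counts, and none was tested.

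TGACAG was present at 14 of the 25 sites, or 56% (Wilson 95% interval 37.1 to 73.3), against 58.3% of all sites. The composite PBX–MEIS element, searched on both strands and containing TGACAG, was present at 3 sites, or 12% (Wilson 95% interval 4.17 to 30.0), against 4.93%. Of the 6 sites with the TEAD consensus, 2 also held TGACAG, and of the 19 without it, 12 did. Over all sites TGACAG was present at 54.3% of those with the TEAD consensus and 59.6% of those without. The 6 sites with the TEAD consensus had a median −log10 p of 37.4 and a range of 16.3 to 48.6, and the 19 without it had a median of 25.4 and a range of 13.2 to 199, so the ranges overlapped. Over all sites the medians were 29.7 with it and 29.0 without.

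**Figure D4:**
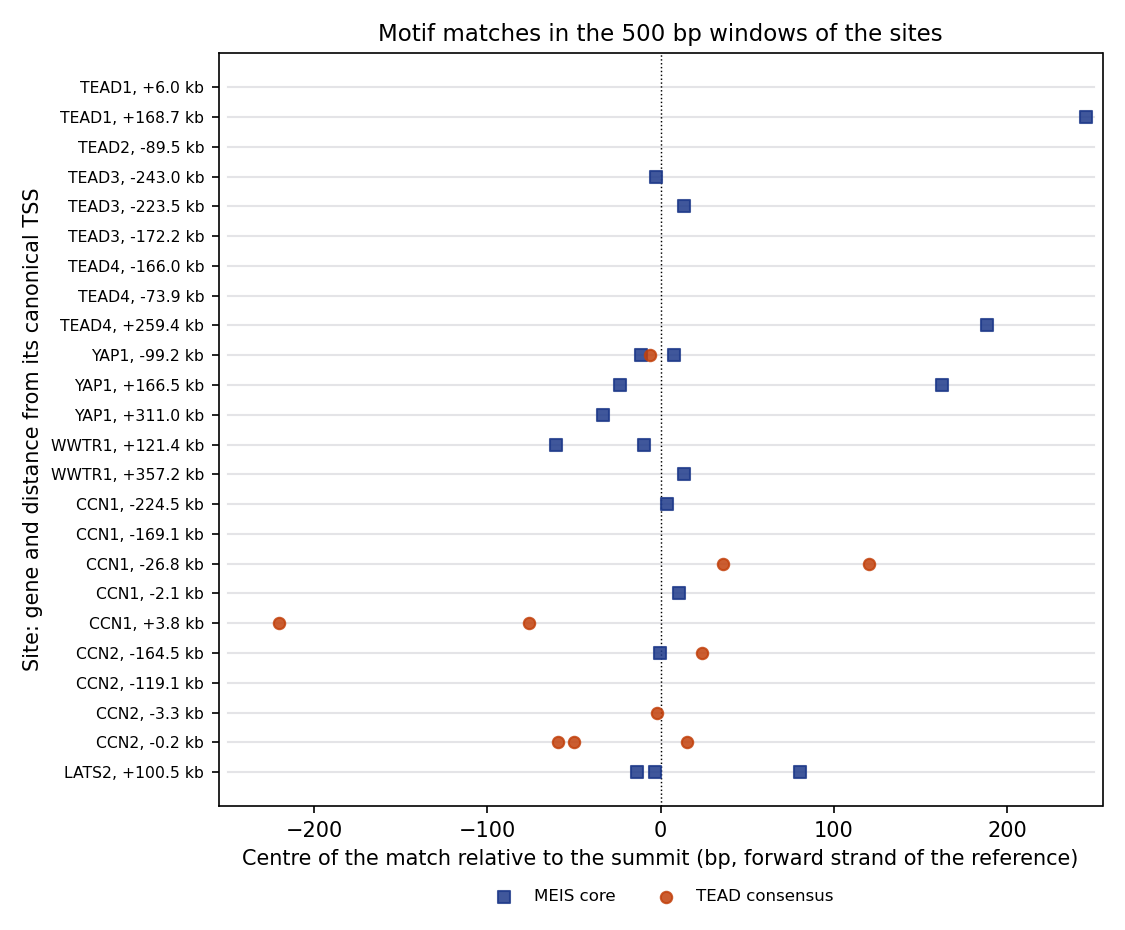
Centres of TEAD consensus matches (circles) and MEIS core matches (squares) in bp from the summit in the 500 bp window of each site, with 1 row for each of 24 of the 25 sites. Circles occur at CCN1, CCN2 and YAP1 sites and not in TEAD, WWTR1 or LATS2 windows, and at 2 of the 6 sites with a circle there is also a square.

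Peaks that overlapped between replicates without entering the site list added 48 positions at the 10 genes, of which 12 held the TEAD consensus, or 25%, against 24.6% of all such peaks, and 25 held TGACAG, or 52.1%, against 51.3%. CCN2 and TEAD1 had 10 each. For the CCN2 peaks CCN2 was the nearest gene in all 10 cases, 9 held TGACAG and 1 held the TEAD consensus. The strongest by its lower value lay 26.3 kb downstream of the CCN2 TSS, with 13.8 in replicate 1 and 16.1 in replicate 2. One, with 6.72 and 5.92, had its summit in the 3′ UTR in exon 5 of CCN2. TEAD2 had no such peak.

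Of 41 further genes of the pathway, 22 had a reproducible site in the same windows, or 53.7%, near the 47.6% of all genes. By role, 3 of 10 kinase cassette genes, 5 of 10 upstream regulators and scaffolds, 2 of 4 other TEAD cofactors and 12 of 17 YAP and TAZ target genes had one. The 4 with the most were RBMS3, ANKRD1, FAT4 and VGLL3, picked by that count. VGLL3 shared its count of 3 with other pathway genes and was taken for its higher −log10 p. RBMS3, an RNA-binding protein gene of 1436 kb, had 10 sites, all in its body, a count reached by 5% of like-length genes. For a gene this long, those genes ranged widely, from 634 to 2173 kb. ANKRD1, a classical YAP target with a body of 8.99 kb, had 5 sites, all in its flanks, a count reached by 1% of its like-length genes. It was the nearest gene for all 5, and the strongest had a −log10 p of 320. FAT4, an atypical cadherin upstream of the pathway, had 4 sites, a count reached by 8%, and VGLL3, a TEAD cofactor, had 3, a count reached by 11%.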

How the data were processed

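MEIS ChIP was measured in 2 hNSC samples and Input in 2, grouped by their titles. The authors trimmed adapters with cutadapt 1.16, mapped to GRCh37 (hg19) with bowtie2 2.3.0 and samtools 1.2, filtered on mapping quality, and removed duplicates with Picard 2.15.0. They called peaks per replicate against Input with MACS2, whose version is not given in the sources used here, at a loose threshold, and then ran IDR 2.0.3. Near-identical repeats can therefore lack peaks. The deposited peak lists hold fold enrichment over Input (a linear ratio), −log10 p and −log10 q, and the deposited site list holds a scaled IDR score, the −log10 p, the summit and the −log10 of the IDR. Its 8 columns of values by replicate were not used, and replicate values came from the strongest overlapping peak.

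Coordinates are 1-based. The position of 1 TEAD2 site is not reported here, and the site is left out of the plots of single sites. Genes, canonical transcripts and distances came from GENCODE 44 mapped to GRCh37, with 1 record per symbol. Consensus strings were searched on both strands, whole match inside the 500 bp centred on the summit, so weaker forms of a motif were not counted. Overlap meant at least 1 bp. Wilson 95% intervals reflect only how many peaks or sites a share rests on. No test was run, since there was 1 group with values, and peaks and genes are not replicates.

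The genes named were the 10 listed genes and the nearest gene of each of their sites with a reported position. The 4 other pathway genes with the most sites were also named, ties broken by strength. Genes that hold a site, and those with 2 sites near their TSS, were named after their values were seen. The members and lists were chosen with earlier results of these data known. Python 3.11.15, pandas 2.3.3, scipy 1.17.1 and pysam 0.24.0 were used, and the counting, overlap and motif steps were tested on simulated data. Alternatives changed the window, assignment, IDR threshold, consensus, overlap and replicates used. The window on each replicate's own summit was chosen after seeing the data.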

Additional observations from a re-analysis of the deposited data

How the results depend on the processing

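The number of reproducible sites at the 10 genes depended on the window and assignment. It was 13 in place of 25 with gene bodies extended by 100 kb, 8 when a site counted only for the gene with the nearest canonical TSS, and 14 at an IDR of 0.001 or less. Nearest-TSS assignment left 3 of the 10 genes with a site, TEAD1, CCN1 and CCN2, in place of 9. Using as many of the strongest peaks of a single replicate gave 23 sites and 9 genes with a site, whichever replicate was left out. Of the 25 sites, 20 were overlapped by such a peak without replicate 1 and 21 without replicate 2. They included all 5 sites of CCN1 under both settings, and 3 and 2 of the 4 of CCN2. TEAD3 had 1 site in place of 3 without replicate 1, and WWTR1 had 1 in place of 2 without replicate 2. CCN2 had 2 sites at 100 kb, and likewise under the stricter IDR threshold. Its like-length share was 6% at 500 kb, and TEAD3, with no site at 100 kb, was at 100% there.

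The share of sites with the TEAD consensus was 21.7% whichever replicate was left out. Over all sites of those settings it was 24.8% without replicate 1 and 25.7% without replicate 2. In windows on the summits of replicate 1 and replicate 2 it was 24% and 20%, against 25.6% and 25.8% of all sites. With the octamer ACATTCCA or GCATTCCA it was 8%, against 10.7% of all sites. At an IDR of 0.001 or less it was 35.7% (5 of 14 sites), against 26.0% of all such sites. With the core CATTCC alone it was 40% (10 of 25 sites), against 38.2% of all sites. With CATTCCA or CATTCCT it was 28%, against 31.2%. The share with TGACAG was 56.5% without replicate 1 and 60.9% without replicate 2, against 57.5% and 58.7% of all such sites. With only peaks at −log10 p 5 or higher, replicate 1 had 67 and replicate 2 had 81. The share of replicate 1 peaks found in replicate 2 was 42.6% when 50% of both peaks had to overlap and 76.1% among those stronger peaks. Of 132 alternatives, 86 left the value within 1.5 times or within its interval and 46 moved it, of which 37 concerned single genes.

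No paired analysis was possible because Input entered only through peak calling and no test was run. Depth was unknown, so the absence of a site at AMOTL2 or at a start site means that none passed the authors' thresholds. The wash used for each replicate was not given in the sources used here.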
